A study of Homo sapiens with 6 samples.

Results

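The loci described here are the copies of 6 small nuclear RNAs (snRNAs) named in the repeat annotation of the deposited tables: U1, U2, U4, U5, U6 and U7. They were taken by name, and within each name the locus with the most reads over all 6 libraries, here called the leading locus, was kept apart from the other copies. The 6 names held 184 of the 433837 listed loci and 6 of the 5230 repeat names. U6 had 68 listed loci, U1 37, U2 36, U5 17, U7 16 and U4 10. The cells were HEK293T, an established line of human embryonic kidney origin listed as wild type, and all 6 cultures were transfected with a chemically modified chimeric antisense oligonucleotide (ASO) at 100 nM. In 3 libraries the ASO was directed against U7 snRNA, and the labels call these cells a U7 snRNA knockdown. In the 3 control libraries it was directed against GFP. Each group's libraries are described by the submitters as biological replicates. The tables hold repeat loci and no gene rows, so markers of the cell line were not checked.

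The spliceosome removes introns with the help of 5 snRNAs, each packed with proteins into a particle. U1 pairs with the 5′ splice site and U2 with the branch point, whereas U4, U5 and U6 join as a single particle in which U4 holds U6 inactive until the catalytic core forms. U7 takes no part in splicing. Its particle pairs with an element downstream of the stem-loop of replication-dependent histone transcripts and directs the cut that makes their 3′ end, in place of a poly(A) tail. The human genome holds few functional genes for each of these RNAs and many more retroposed copies, most of them regarded as pseudogenes.

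Reference RNAs of U7, U1, U2 and U4 are shown to make plain what the names stand for and how alike the gene copies are. The sequences are those of GENCODE v29 (GRCh38) transcripts, written 5′ to 3′ with T for U. In the U7, U1 and U2 RNAs the first run of capitals marks an element that pairs with another RNA: the histone-pairing CAGCTCTTTT of U7, the 5′ splice site complement ACTTACCTG of U1 and the branch-point-pairing GTAGTA of U2. The last run in those 3 RNAs and the only run in the U4 RNAs marks the site bound by the ring of Sm proteins.
RNU7-1: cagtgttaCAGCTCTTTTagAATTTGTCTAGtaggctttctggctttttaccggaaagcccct
RNU1-1: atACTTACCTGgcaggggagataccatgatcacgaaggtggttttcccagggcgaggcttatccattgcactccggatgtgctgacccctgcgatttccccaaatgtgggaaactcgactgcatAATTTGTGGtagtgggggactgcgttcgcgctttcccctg
RNU2-1: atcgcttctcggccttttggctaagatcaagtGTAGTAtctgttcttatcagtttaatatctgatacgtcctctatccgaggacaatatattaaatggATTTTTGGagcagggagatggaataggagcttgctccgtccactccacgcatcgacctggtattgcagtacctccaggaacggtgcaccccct
RNU4-2: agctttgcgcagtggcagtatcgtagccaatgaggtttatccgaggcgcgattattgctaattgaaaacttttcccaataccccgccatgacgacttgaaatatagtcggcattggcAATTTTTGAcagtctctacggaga
RNU4-1: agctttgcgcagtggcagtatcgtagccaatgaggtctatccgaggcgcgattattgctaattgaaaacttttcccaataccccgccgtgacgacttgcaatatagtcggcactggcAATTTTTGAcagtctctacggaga

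U7 is the shortest of them, with 63 bases against 141 in both U4 RNAs, 164 in RNU1-1 and 191 in RNU2-1. Its Sm-type site AATTTGTCTAG, at bases 21 to 31, is the one that loads a ring with LSM10 and LSM11 in place of a pair of the usual Sm proteins. Of 149 GENCODE transcripts with RNU7 names, 85 hold AATTTGTCTAG on the transcript strand, 58 hold CAGCTCTTTT and 34 hold both, against 89 and 61 of all 1900 snRNA transcripts for each motif. The sequence of RNU7-1 occurs in 1 snRNA transcript of GENCODE v29, and those of RNU4-1 and RNU4-2 also in 1 each. The sequence of RNU1-1 occurs in 8 and that of RNU2-1 in 11. Over those identical genes a read inside the RNA has no single place in the genome, and how such reads were counted is not given in the sources used here. RNU4-1 and RNU4-2 differ at 4 positions, counted from 1 at the 5′ end and written from RNU4-2 to RNU4-1: T37C, A88G, A99C and T113C.

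RNU7-1 lies at chr12:6943816-6943878 on the plus strand, partly over an exon of the protein-coding gene C12orf57 on that strand and inside an exon of the antisense gene U47924.2. RNU4-2 (chr12:120291763-120291903) and RNU4-1 (chr12:120293097-120293237) are neighbours on the minus strand, 1193 bases apart, and overlap no other annotated gene. RNU1-1 (chr1:16514122-16514285, minus) overlaps none either. RNU2-1 (chr17:43233787-43233977, minus) lies in an intron of CCDC200. The deposited locus names carry a copy number and a running number and no coordinates, so none of the loci below was matched to one of these genes.

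Reads of the 6 names were a small part of each table. The libraries held from 1926892 to 2819540 reads in repeat loci, of which the 6 names took 0.0805% to 0.115% in control libraries and 0.0570% to 0.0751% in U7 ASO libraries. A single 7SK locus held 16.5% to 21.6% of the reads of a library. LTR12 and HERV9 elements, endogenous retroviral repeats of which the series title names LTR12, took 0.213% to 0.266% in control libraries, compared with 2.01% to 3.18% in U7 ASO libraries. Of the 10295 reads of the 6 names, U1 held 6248, U4 2783, U2 448, U6 426, U5 342 and U7 48. These are counts over unequal numbers and lengths of loci and give no order of abundance. Levels below are CPM, read counts scaled to a common library size with edgeR's TMM factors over the tested repeat names, and adjusted p-values are Benjamini-Hochberg values from edgeR's quasi-likelihood test over all 2236 names, 2240 split names or 14380 loci that passed a filter on low counts.

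The copies of U7, the RNA targeted by the ASO, had too few reads for a comparison. None was matched to RNU7-1, so whether their reads come from the targeted RNA is unknown. Summed over its 16 loci, U7 had 10, 6 and 12 reads with the control ASO against 10, 4 and 6 with the U7 ASO. The groups overlapped, and the name did not pass the count filter. Fitted without the filter, its log2 fold change was −0.75 with a 95% interval from −3.37 to 1.88 (adjusted p = 0.833, edgeR). At this depth neither a fall nor a rise of several fold was detectable.

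The U7 reads were scattered over the copies. A pair of loci tied for the most, U7_dup7_124108 with 10 reads, all in control replicate 1, and U7_dup9_2367693 with 10 reads, all in control replicate 3. No U7 locus had a read in both groups: 6 were read in controls only and 10 with the U7 ASO only, and in 14 of the 16 no library reached 10 reads. Matching shares over all listed loci were not computed, and the U7 ASO tables were the larger ones. Between 1 and 4 U7 loci had a read in a library. A locus with a steady signal in all libraries, such as those seen for U1, U2 and U4, was not among them.

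Among the spliceosomal names, U2 and U4 were lower with the U7 ASO, whereas U1, U5 and U6 did not pass the test. Of the 5 names tested, 2 fell and 0 rose. Over all 2236 tested names 1.03% fell, 1.52% rose and 2.55% changed in either direction. The median log2 fold change of the 5 names was −0.45, and that of all tested names −0.01. In both U2 and U4 all U7 ASO libraries lay below all controls, as they did for 10.2% of all tested names. In no snRNA name did they all lie above the controls, as they did for 9.93%.

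U2 forms the particle that selects the branch point. Its summed reads were 96, 109 and 95 in the controls and 44, 49 and 55 with the U7 ASO, although the U7 ASO tables were the larger ones. In scaled levels this was 51.4, 58.5 and 45.8 CPM against 20.7, 20.1 and 19.6 CPM. The 3 U7 ASO values lay close together and all were under the lowest control. The mean fell from 51.9 ± 6.35 to 20.1 ± 0.559 CPM (SD, n = 3 each), a ratio of 0.388, with a log2 fold change of −1.36 (SE 0.35, 95% interval −2.09 to −0.64, adjusted p = 0.0362, edgeR). The call ended without control replicate 1 or 2 (adjusted p = 0.0990 and 0.211), without U7 ASO replicate 2 or 3 (0.159 and 0.192), with no count filter (0.0513) and with library totals as the only scaling (0.0532), all from the edgeR test.

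U4, the RNA that keeps U6 inactive in the tri-snRNP, had 521, 467 and 622 reads in the controls and 343, 415 and 415 with the U7 ASO. Its levels were 279, 251 and 300.0 CPM in the controls and 161, 171 and 148 CPM with the U7 ASO. The lowest control lay well above the highest U7 ASO library. The mean fell from 277 ± 24.8 to 159.8 ± 11.5 CPM (SD, n = 3 each), a ratio of 0.578, with a log2 fold change of −0.79 (SE 0.21, 95% interval −1.22 to −0.36, adjusted p = 0.0454, edgeR). The call held in 1 of the 6 fits that left out a library, the one without U7 ASO replicate 1, and the adjusted p reached 0.277 without U7 ASO replicate 3. It also ended with no count filter (0.0562), with library totals as the only scaling (0.109) and without LTR12 and HERV9 names (0.0549).

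U1, which marks the 5′ splice site, held 953, 871 and 1409 reads in the controls and 680, 1173 and 1162 with the U7 ASO. Its levels were 510.2, 467 and 680 CPM against 320, 482 and 413 CPM, and the groups overlapped, since U7 ASO replicate 2 lay above control replicate 2. The log2 fold change was −0.45 (SE 0.21, 95% interval −0.88 to −0.01, adjusted p = 0.330, edgeR). A fall of the size seen in U4 lies inside that interval, and so does almost no change.

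U5, which aligns the exons, held 52, 45 and 62 reads in the controls and 69, 48 and 66 with the U7 ASO, or 27.3 ± 2.91 and 25.2 ± 6.53 CPM (SD, n = 3 each). The groups overlapped (log2 fold change −0.12, 95% interval −0.95 to 0.72, adjusted p = 0.931, edgeR). U6, which forms the catalytic core with U2, held 40, 53 and 87 reads in the controls and 46, 75 and 125 with the U7 ASO, or 30.6 ± 10.4 and 32.3 ± 11.5 CPM. It overlapped too (log2 fold change 0.08, 95% interval −0.76 to 0.92, adjusted p = 0.954). The U2 estimate of −1.36 lies outside both intervals, but its own interval, −2.09 to −0.64, overlaps both. The difference between names was not tested.

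**Figure D1:**
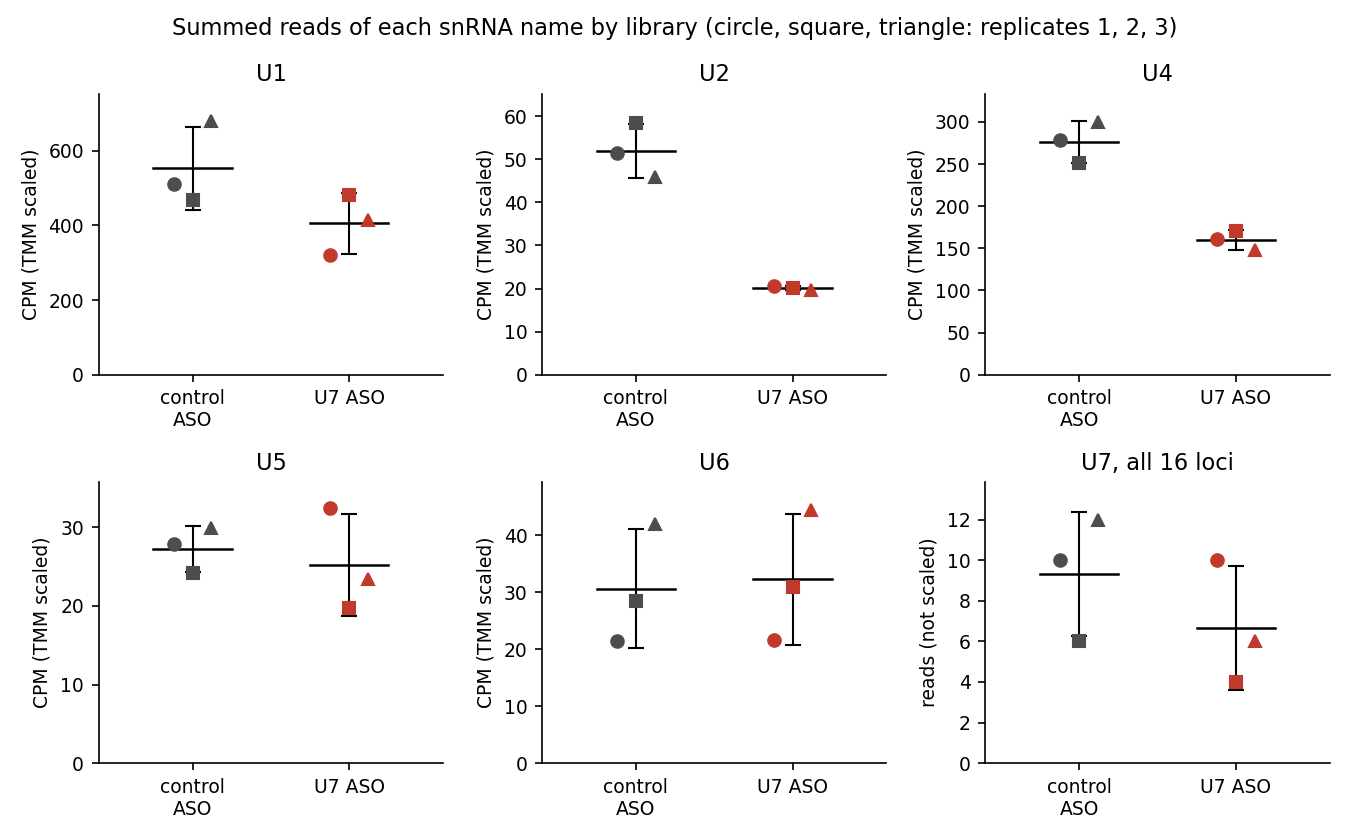
Summed reads of each snRNA name in the 3 control ASO and 3 U7 ASO libraries, as TMM-scaled CPM for U1, U2, U4, U5 and U6 and as unscaled reads for U7; points are libraries, horizontal lines means and bars SDs (n = 3 each). In the U2 and U4 panels all U7 ASO libraries lie below all controls, at 20.1 against 51.9 CPM and 159.8 against 277 CPM on average, and in the other panels the groups overlap.

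The separation of the leading locus from the other copies showed how each sum was made up. Of the 10 listed U4 loci, U4_dup7_3926433 and U4_dup8_3926436 held 98.0% of the reads, with running numbers 3 apart. U1 was spread more widely, with 45.9% of its reads in U1_dup39_257632 and 80.7% in its 5 loci with the most reads. For U2 the leading locus U2_dup23_3563927 held 44.0% and the first 2 loci 62.3%. U5 and U6 had no dominant copy, with 20.8% and 9.39% of their reads in the leading locus and 64.3% and 30.8% in the first 5. Of the 184 loci, 136 stayed under 10 reads in every library, 51 had reads in controls only and 75 with the U7 ASO only. Matching shares over all listed loci were not computed, and the U7 ASO tables held more reads, so these counts show no gain of copies.

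The leading locus held 69.2% of all U4 reads, and most of the difference lay in it. U4_dup7_3926433 held 380, 339 and 425 reads in the controls and 248, 244 and 289 with the U7 ASO, with no overlap even in unscaled reads. Tested beside the repeat names, it fell from 197 ± 12.8 to 107 ± 8.75 CPM (SD, n = 3 each; log2 fold change −0.88, SE 0.22, adjusted p = 0.0324, edgeR), where 2.46% of the 2240 features of that fit changed and 0.938% were lower. In that fit its call held without U7 ASO replicate 1 and was lost without each of the other 5 libraries in turn (adjusted p from 0.0784 to 0.218) and with library totals as the only scaling (0.0779). In the fit of single loci, where the filter removed more reads and the scaling differed, its log2 fold change was −0.67 (SE 0.26, adjusted p = 0.249) and it did not pass. It carried 77.3% of the difference in mean U4 CPM, beside 69.2% of all U4 reads. Most of the difference would lie in it even if all copies fell alike.

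The second U4 locus did not show the same separation. U4_dup8_3926436 held 137, 114 and 184 reads in the controls and 90, 158 and 120 with the U7 ASO, and U7 ASO replicate 2 lay among the controls (locus fit, log2 fold change −0.36, 95% interval −1.08 to 0.37, adjusted p = 0.848, edgeR). All U4 copies outside the leading locus summed to 79.7 ± 13.6 and 53.3 ± 14.8 CPM (log2 fold change −0.58, adjusted p = 0.396, edgeR). Whether the 2 loci differed in their response was not tested by a term of the model, and the share outside the leading locus below compares them within libraries. The Alu element AluSg4_dup278_3926434, listed between them, held 69, 71 and 42 reads in the controls and 161, 121 and 121 with the U7 ASO, higher where the U4 locus next to it was lower. It was named after its values were seen.

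In U2 the difference was shared about equally between the leading locus, with 49.7% of it, and the rest. U2_dup23_3563927 held 39, 57 and 42 reads in the controls and 21, 17 and 21 with the U7 ASO. All 3 U7 ASO libraries lay below all controls, as at 8.36% of the 14380 tested loci, but the locus did not pass (log2 fold change −1.35, SE 0.51, 95% interval −2.44 to −0.26, adjusted p = 0.233, edgeR). The AluSc_dup593_3563925 copy 2 running numbers away held 235, 207 and 156 reads in the controls and 178, 234 and 148 with the U7 ASO, with overlap.

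The other 35 U2 copies summed to 57, 52 and 53 reads in the controls and 23, 32 and 34 with the U7 ASO. Again all U7 ASO libraries were below all controls, as for 10.1% of the features of that fit, at 28.0 ± 2.48 and 12.0 ± 1.18 CPM (SD, n = 3 each), and again the test was not passed (log2 fold change −1.21, 95% interval −2.15 to −0.28, adjusted p = 0.197, edgeR). These copies were uneven from library to library: U2_dup25_2999889 held 26, 30 and 6 reads in the controls and 0, 5 and 15 with the U7 ASO, and U2_dup30_4697241 held 20, 2 and 0 against 4, 6 and 0. Of the 36 U2 loci, 14 had reads in controls only and 15 with the U7 ASO only, and matching shares over all listed loci were not computed.

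For U1, neither part passed. The leading locus U1_dup39_257632 held 515, 405 and 597 reads in the controls and 282, 460 and 611 with the U7 ASO, with overlap (locus fit, log2 fold change −0.30, 95% interval −0.93 to 0.32, adjusted p = 0.851, edgeR). Tested beside the repeat names, it was at 260 ± 37.6 and 179.8 ± 43.2 CPM (log2 fold change −0.53, 95% interval −1.01 to −0.05, adjusted p = 0.282, edgeR). In that same fit the other 36 copies summed to 292 ± 86.4 and 226 ± 58.9 CPM (SD, n = 3 each; log2 fold change −0.37, adjusted p = 0.522, edgeR).

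**Figure D2:**
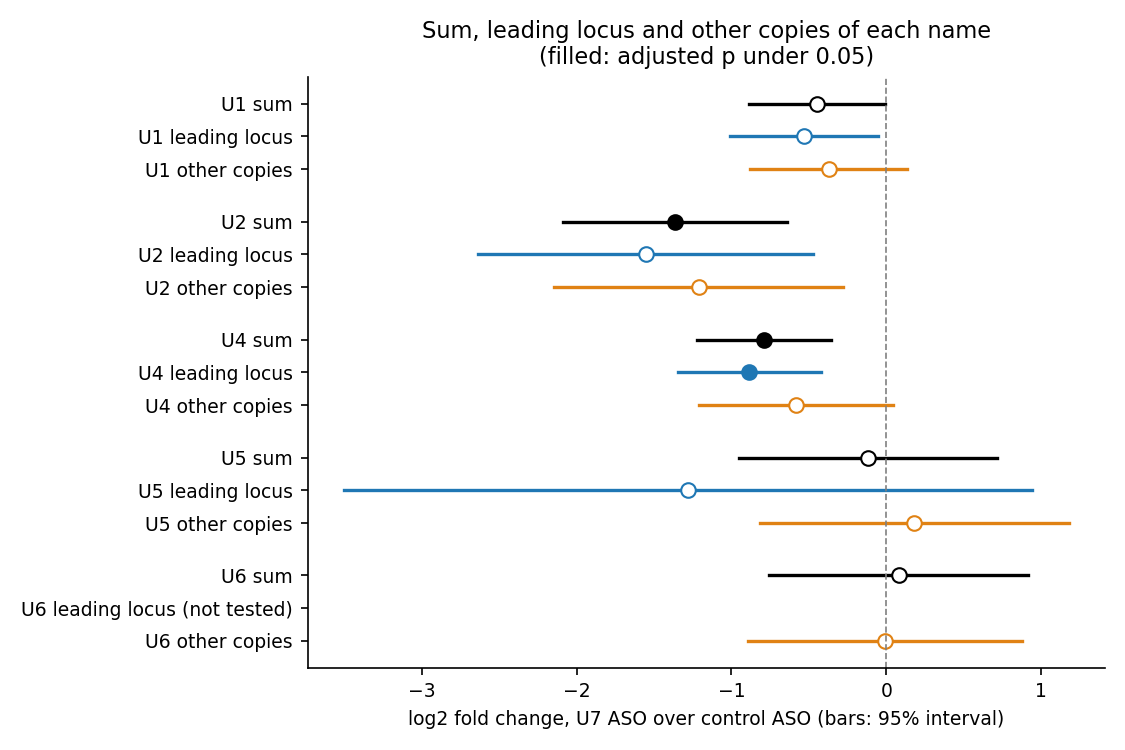
Log2 fold change (U7 ASO over control ASO) with its 95% interval for the sum, the leading locus and the other copies of U1, U2, U4, U5 and U6, all from fits of repeat names; filled points passed at an adjusted p under 0.05. The sums of U2 (−1.36) and U4 (−0.79) and the leading U4 locus (−0.88) are filled, and the U6 leading locus was not tested.

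Single copies could be tested at 17 of the 184 loci: 12 of U1, 2 each of U2 and U4, 1 of U5 and none of U6 or U7. Of these, 1 was raised and 0 were lowered, against 4.49% raised, 0.473% lowered and 4.96% changed in either direction among all 14380 tested loci. An unadjusted p under 0.05 was found for 3 of them, and for 12.3% of all tested loci. DESeq2 also called 1 raised and 0 lowered, and limma-voom called 0 of either, where they raised 5.5% and 2.37% of all tested loci. The log2 fold change was below 0 at 13 of the 17 loci and above 0 at 4. At 14 loci the groups overlapped, at 2 all U7 ASO libraries lay below all controls and at 1 above, against 8.36% below and 12.2% above among all tested loci. The shares called and the shares without overlap are near the background. No background share was computed for the direction. The median log2 fold change was −0.36 at the 17 loci and 0.06 over all tested loci.

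The raised copy, U1_dup36_255923, had no read in any control library and 16, 18 and 48 reads with the U7 ASO. It passed the test (adjusted p = 0.0106, edgeR). Set against a floor of 3 reads over the control group, its level was 25.1-fold higher. That floor takes reads as independent, so the value is not a strict lower bound. A locus at 0 in the controls passes the filter only through its U7 ASO libraries, so that among tested loci of this kind a difference is built in. The call was lost without each of the 3 U7 ASO libraries in turn (adjusted p from 0.0595 to 0.315) and with limma-voom (0.0684). With counts halved the locus did not pass the count filter and was not tested.

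Of the 6 repeats listed nearest to that copy, 4 were at 0 in the controls as well and 2 were not. The share of all listed loci at 0 in the controls was not computed. The tRNA-Glu-GAA_dup14_255922 locus, 1 running number away, held 0, 3 and 14 reads with the U7 ASO, and MLT1A0_dup867_255920, 3 away, held 2, 14 and 24. Both had 0 reads in all 3 control libraries. So had MER20_dup680_255921 and (TTT)n_dup16_255927, which held 7, 0 and 0 and 0, 0 and 5 reads with the U7 ASO. On the other side, LTR75B_dup18_255929, 6 away, held 10, 15 and 10 reads in the controls and 21, 29 and 17 with the U7 ASO, and L1ME2_dup671_255928, 5 away, held 0, 12 and 0 against 4, 6 and 13. The nearest listed LTR12 or HERV9 locus, LTR12C_dup81_256956, was 1033 running numbers away, with 0 reads in the controls and 47, 26 and 13 with the U7 ASO. The same copy was nearest to the leading U1 locus, 676 away, which was not raised. Copies nearest to the leading U2 and U4 loci held 0, 0 and 0 against 49, 56 and 84, and 10, 0 and 0 against 83, 52 and 51. For U5 it was 0, 4 and 0 against 12, 18 and 24, for U6 8, 0 and 0 against 4, 2 and 10, and for U7 2, 0 and 0 against 0, 0 and 0. Whether reads of the U1 copy belong to a longer transcript was not tested.

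The other 10 tested U1 copies, apart from the leading locus, did not pass, with log2 fold changes from −1.41 to 0.46. U1_dup31_254055, with the second most reads, held 109, 87 and 163 reads in the controls and 93, 217 and 176 with the U7 ASO. U1_dup33_254650 held 92, 86 and 165 against 64, 116 and 76, and U1_dup4_4730089 held 55, 103 and 132 against 48, 110 and 19. In each of the 3 the groups overlapped.

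**Figure D3:**
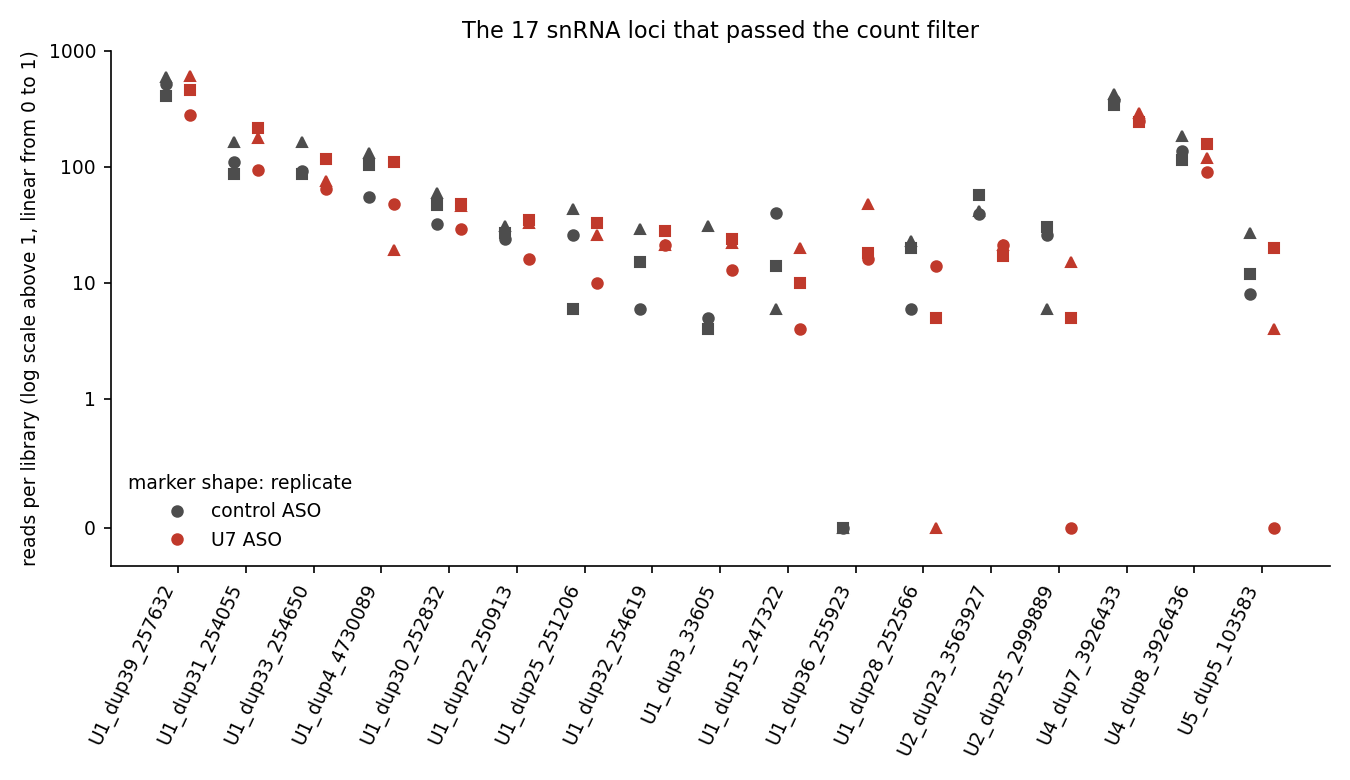
Reads per library at the 17 snRNA loci that passed the count filter, unscaled, on a vertical axis that is logarithmic above 1 and linear from 0 to 1; grey marks are control ASO and red marks U7 ASO libraries, with 1 shape per replicate number. U1_dup36_255923 sits at 0 in the controls and at 16, 18 and 48 with the U7 ASO, and the 2 groups are apart at U4_dup7_3926433 and U2_dup23_3563927.

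The share of reads outside the leading locus compares copies within a library and needs no scaling between libraries. In U4 it was 27.1%, 27.4% and 31.7% in the controls and 27.7%, 41.2% and 30.4% with the U7 ASO, and the Clopper-Pearson 95% intervals spanned 23.3% to 35.5% for the control group against 23.0% to 46.1% for the U7 ASO group. U7 ASO replicate 2 stood above the other 5 libraries, which lay close together. In U2 the share was 54.3 ± 5.98% and 59.8 ± 6.75%, and in U1 52.4 ± 5.92% and 55.6 ± 7.16% (SD, n = 3 each). In none of the 6 names did the difference pass (exact two-sided permutation test, p from 0.3 to 1, adjusted p from 0.6 to 1), and 3 libraries against 3 cannot give a p under 0.1. The intervals take reads as independent and leave out differences between libraries. Reads that carry no molecular identifier are not independent molecules, so the intervals may be too narrow. They are too narrow if each pair was counted as 2 reads.

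**Figure D4:**
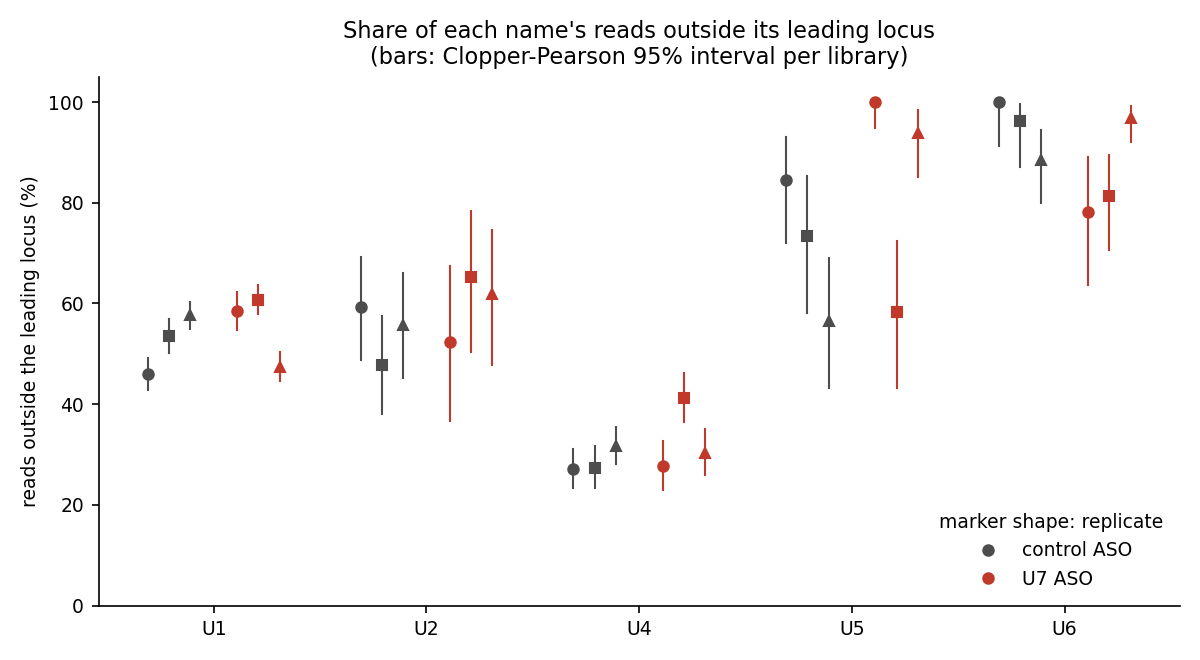
Percentage of reads outside the leading locus for U1, U2, U4, U5 and U6 (U7, with too few reads, is not drawn), per library, with Clopper-Pearson 95% intervals; grey marks are control ASO and red marks U7 ASO libraries. The groups overlap for each of these 5 names, and among their controls U4 is lowest, at 27.1% to 31.7%, and U6 highest, at 88.5% to 100.0%.

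U5 and U6 copies were near the limit of the counts. The leading U5 locus, U5_dup5_103583, held 8, 12 and 27 reads in the controls and 0, 20 and 4 with the U7 ASO (locus fit, log2 fold change −1.05, 95% interval −3.68 to 1.59, adjusted p = 0.899, edgeR). The other U5 copies summed to 19.4 ± 3.64 and 22.0 ± 10.5 CPM (adjusted p = 0.913). The leading U6 locus, U6_dup20_5108608, held 0, 2 and 10 reads against 10, 14 and 4, and was not tested. The other 67 U6 copies summed to 28.6 ± 7.92 and 28.4 ± 13.4 CPM (SD, n = 3 each; log2 fold change −0.01, adjusted p = 0.996, edgeR).

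Other structured RNAs in the same tables give the setting for U2 and U4. A list of 16 names was used: the small nucleolar RNAs U3, U8, U13, U13_, U14 and U17, the Y RNAs HY1, HY3, HY4 and HY5, 7SK, 7SLRNA, BC200, 5S and the 2 large ribosomal RNAs. All 16 were tested and 0 changed in the reported edgeR fit at the adjusted threshold. An unadjusted p under 0.05 was found for 4, where 14.6% of all tested names had one. DESeq2 called 1 of them lower and limma-voom 3, and each called 1.83% of all tested names lower. Their median log2 fold change was −0.07. The 4 were U17 (log2 fold change −0.54, adjusted p = 0.0838), HY3 (−0.73, adjusted p = 0.0582), HY1 (−0.47, adjusted p = 0.214) and 7SK (−0.22, adjusted p = 0.263), all lower with the U7 ASO. With no count filter, edgeR called 4 of the 16 names lower and 0 of the 6 snRNA names, where 44 of all 5230 names were lower. The replicate block, and the fit without U7 ASO replicate 1, each called 3 of the 16 and 2 snRNA names lower. Over all tested names they called 74 of 2236 and 76 of 2416 lower. Upper-quartile scaling called 1 of the 16 lower and halved counts 1 of 14, each with 2 snRNA names. Over all tested names these called 29 of 2236 and 28 of 1837 lower. With library totals as the only scaling, edgeR called 0 of either. The U4 estimate of −0.79 lies inside the 95% intervals of HY3 (−1.14 to −0.31), U17 (−0.87 to −0.21) and HY1 (−0.85 to −0.09). It lies outside that of 7SK (−0.41 to −0.03), and the U2 estimate of −1.36 lies outside each of these intervals. Whether U2 and U4 differ from these RNAs was not tested. In libraries of bulk RNA, fewer copies per cell and fewer cells with the RNA cannot be told apart.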

How the data were processed

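RNA of 6 HEK293T libraries was sequenced after ribosomal RNA depletion, per the labels' protocols, and the authors deposited 1 table of raw read counts per repeat locus for each library. GRCh38, featureCounts 1.5.0-p1 (Subread), STAR 2.5.3a and FastQC 0.11.5 are named in the submitters' processing notes. The repeat annotation, the strand setting and the handling of reads with several placements were not given in the sources used here, so reads of near-identical copies may have been split, dropped or moved, and both strands may be counted. Between 73.3% and 79.0% of counts above 0 were even numbers over all loci of a library. Among the snRNA names, over all libraries, it was 56.4% for U1, 59.3% for U2, 57.7% for U4, 67.3% for U5, 62.4% for U6 and 41.2% for U7. If each sequenced pair was counted as 2 reads, which no source used here states, the printed reads are about 2 times the number of fragments, and halved counts were therefore one of the alternatives. Groups and replicate numbers came from the sample titles.

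Counts were tested per locus, per repeat name (sum over its loci) and with the 6 snRNA names split into leading locus and other copies. The test was edgeR 4.0.16 (glmQLFit and glmQLFTest, two-sided, TMM, filterByExpr with a minimum count of 10 and total of 15) under R 4.3.3, with calls at an adjusted p under 0.05 and no fold threshold. Each standard error is the log2 fold change divided by the square root of F. DESeq2 1.42.0 and limma-voom (limma 3.58.1) were among the alternatives. The code was tested on simulated counts. At a fold of 0.5, 15 of 50 changed repeat names and 0 of 50 changed loci were recovered, and at 0.25, 38 and 9. At a fold of 2 the numbers were 23 and 4, and at 4 they were 47 and 24. Replicate libraries differed by more than sampling noise (chi-square per degree of freedom 11.7 to 53.5 over repeat names). All 6 names, their leading loci and any locus past the threshold were named. The members and lists were chosen with earlier results of these data known. Some further loci were named after their values were seen.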

Additional observations from a re-analysis of the deposited data

How the results depend on the processing

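The fall of U2 and of U4 kept its direction in all 14 alternatives run for each, with log2 fold changes from −1.44 to −1.26 and from −0.84 to −0.72, but U2 passed in 8 and U4 in 6. With no count filter the values were −1.35 and −0.78, with library totals as the only scaling −1.30 and −0.74, and without LTR12 and HERV9 names, an alternative chosen after seeing the data, the U4 value was −0.79. Leaving out single libraries gave −1.44 to −1.26 for U2, passing in 2 of 6 fits, and −0.84 to −0.72 for U4, passing in 1 of 6. The leading U4 locus beside repeat names ran from −0.94 to −0.83 without single libraries and was −0.83 with library totals. DESeq2 and limma-voom kept both calls (U2 adjusted p = 0.00753 and 0.0380, U4 0.00646 and 0.0303), and so did counts halved and rounded up, under which U1_dup36_255923 was not tested. Fits that leave out a library have fewer samples, and for the other lost calls the cause was not tested.

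U1_dup36_255923 was 5.53 with limma-voom and 7.09 to 7.92 without single libraries on the fitted log2 scale, which is no bound on its fold. Directions turned only in results that passed under no setting. The sums of U5 and U6 ranged from −0.33 to 0.038 and from −0.21 to 0.38 without single libraries, and their other copies from −0.19 to 0.50 and from −0.43 to 0.26. The other U6 copies were also at 0.0027 with DESeq2, 0.0076 with no filter and 0.024 with library totals. The U6 share outside the leading locus was 11.1 percentage points higher with the U7 ASO when the leading locus was taken from control libraries, and that of U7 ranged from 0 to 50 points higher without single libraries.

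The number of changed repeat names, 57, became 89 with DESeq2, 133 with the replicate block and 33 to 122 without single libraries. That of loci, 713, became 942 with DESeq2, 420 with limma-voom and 313 to 665 without single libraries. The replicate block kept the U2 and U4 calls (log2 fold changes −1.36 and −0.79, adjusted p = 0.0238 and 0.0119, edgeR), and it changed no other member call. Deviations of same-numbered libraries correlated weakly, at 0.12, −0.03 and 0.12. Control replicates 1 and 3 correlated best with their own number, and control replicate 2 did not. With values this small, the check cannot decide whether the numbers pair the samples. At single loci upper-quartile scaling moved the median log2 fold change of all loci from 0.06 to −0.09. Depth limits single copies most, since 136 of the 184 loci stay under 10 reads in every library. The U6 and U7 leading loci, not tested in the reported fit, passed in none of the fits that held them.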

Other observations

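Some U5 and U6 copies without a test had reads mainly in 1 group, and they are given as values only, having been named after their values were seen. U5_dup2_23161 had 0 reads in all 3 control libraries and 30, 1 and 14 with the U7 ASO. U5_dup1_23156, with a running number 5 lower, held 0, 7 and 14 reads in the controls and 9, 10 and 6 with the U7 ASO, with overlap. U6_dup17_40179 held 1, 0 and 0 reads in the controls and 3, 0 and 22 with the U7 ASO, so that 1 library carried most of it. U6_dup83_226318 held 0, 4 and 12 reads in the controls and 0 in all 3 U7 ASO libraries, and U2_dup38_2002057 held 0, 2 and 14 against 0 in all 3.

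The number of snRNA loci with a read was 49, 64 and 67 in the controls and 60, 72 and 73 with the U7 ASO, in tables that also held more reads with the U7 ASO. For U6 it was 10, 16 and 21 against 12, 19 and 23, and for U2 it was 7, 12 and 11 against 9, 11 and 9. The groups overlapped in each. These numbers were not compared at equal depth.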
